A study of Rattus norvegicus with 196 samples.

Results

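The nucleus accumbens, the ventral part of the striatum, was compared between its core and its shell in rats that received water only (Sham). The samples were chosen by their labels alone, which name the regions NaCcore and NaCshell, and numbered 8 of the 196 RNA-seq samples of 25 brain regions in the series. Each of the 4 Sham core and 4 Sham shell libraries pooled punches from 10 male Long-Evans rats that were 2 months old at the start and drank water for 6 weeks. The replicates carry the numbers 1, 3, 4 and 5, and a core and a shell library of one number are called a pair below. The only samples set beside them in tests were the 4 core and 4 shell libraries, with the same numbers, of rats given fluoxetine, a serotonin reuptake inhibitor, at 18 mg/kg per day in their drinking water for those 6 weeks (FT). The labels do not say whether the core and shell pools of one number came from the same animals. Tests paired the pools by number unless stated, so their p-values measure how the core against shell difference varied between pairs of pools, not between rats.

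Most neurons of the accumbens are GABAergic projection neurons that carry either the dopamine receptor D1 or D2. The core is known for its place in the circuits of action and learned reward, and the shell for its links with limbic and hypothalamic areas. The core surrounds the anterior commissure, a bundle of myelinated axons, and the shell curves around the core on its medial and ventral sides. No sequence is shown, because the comparison is between regions and not between sequences, and the counts are given per Ensembl transcript without coordinates.

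The 8 Sham libraries held between 3798631 and 50893913 reads counted on transcripts. Those of replicate 3 were the shallowest, at 3798631 in the core and 4916999 in the shell. Within the libraries of replicates 1 and 3, the 50 most abundant transcripts took 53.6 to 77.8% of the counts, against 27.6 to 33.2% within those of replicates 4 and 5. The FT libraries of replicate 3 also stood apart in this share, at 62.4% and 65.4%, while the other 6 FT libraries lay between 27.7 and 28.4%. Levels are given as counts scaled to library size (CPM) after correction by the trimmed mean of M-values, and a CPM is compared between libraries for one transcript, never between transcripts, since it is not divided by length. Counts set a limit to the precision of low transcripts, so that 1 CPM in the Sham core library of replicate 3 rests on only a few reads.

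Both Sham regions carried the transcripts that mark striatal tissue. Ppp1r1b, which encodes the dopamine-regulated phosphatase inhibitor DARPP-32, averaged 405 ± 264 CPM (SD, n = 4) in the core and 330.0 ± 89.1 CPM (SD, n = 4) in the shell when all 98 Sham samples were scaled together, the highest and the second highest mean of the 25 regions. Drd2 (listed as DRD2), the dopamine D2 receptor, had means of 65.7 ± 26.6 CPM in the core and 61.3 ± 18.9 CPM in the shell, again the first and second of 25. Adora2a, an adenosine receptor and a marker of the D2 projection neurons, was also first in the core, at 134 ± 93.9 CPM, and second in the shell, at 111 ± 32.7 CPM. For these 3 genes the difference between the core and shell means was smaller than the SD within either region. The amygdala region labelled BLA came next for each of them, at 239, 58.4 and 86.4 CPM, and its mean lay within 1 SD of the core mean. Penk (listed as PENK), the precursor of the enkephalin peptides, was second in the core at 1020 ± 519 CPM and next in the shell at 930 ± 243 CPM, both behind BLA.

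**Figure D1:**
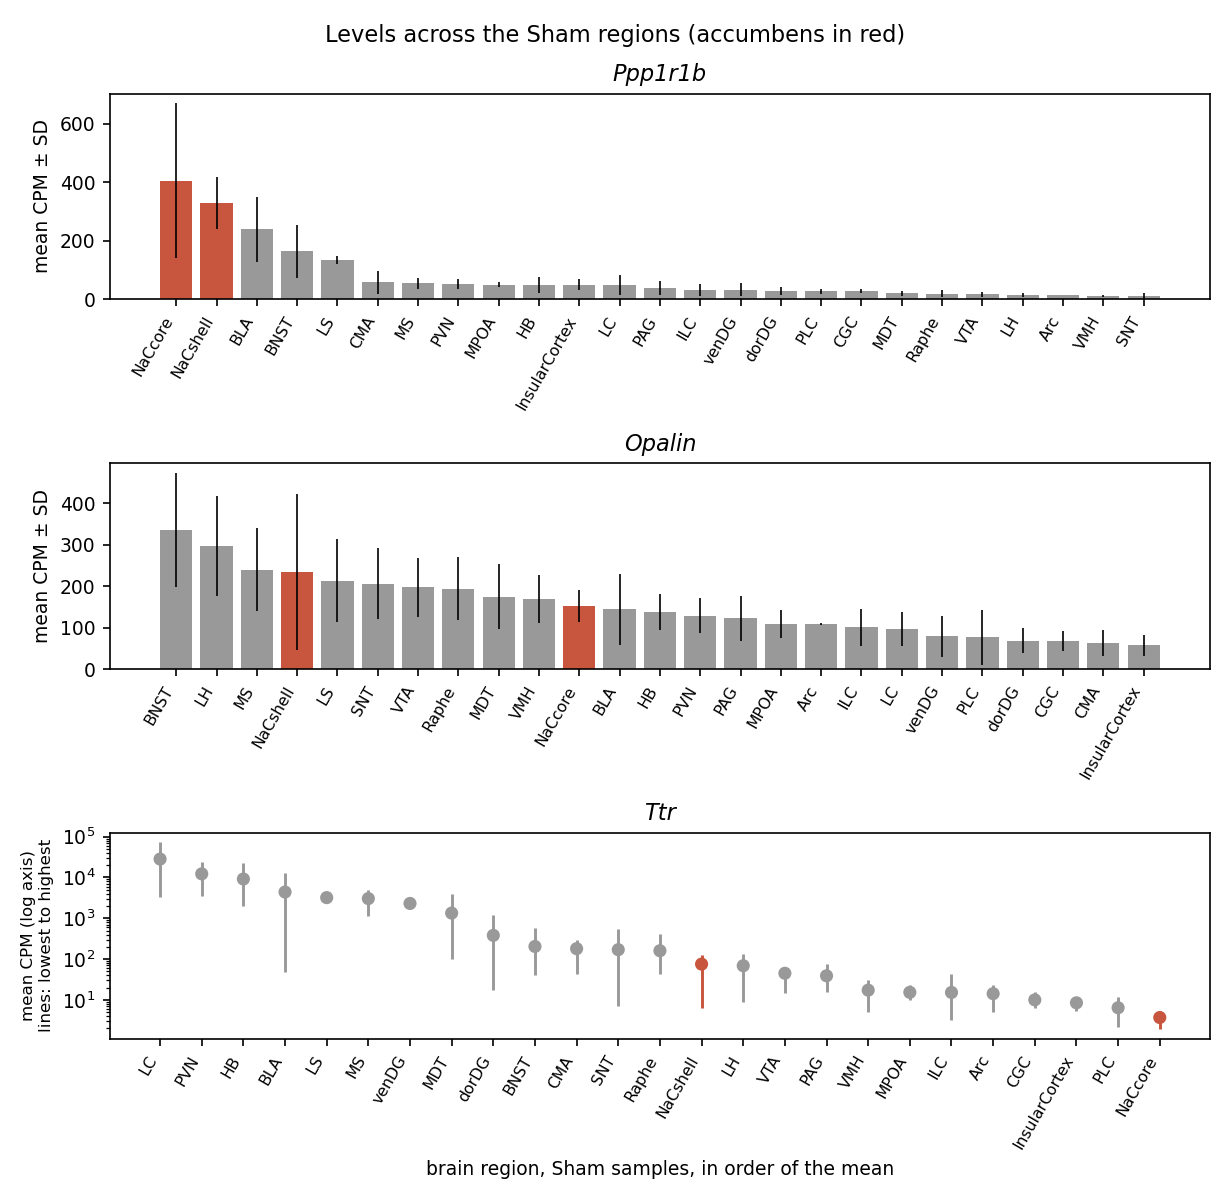
Mean CPM of Ppp1r1b, Opalin and Ttr in the 25 Sham regions, in order of the mean, with the accumbens in red. Bars show the SD over the samples of a region, and for Ttr, on a log axis, lines run from the lowest to the highest sample; Ppp1r1b was highest in the accumbens, and Ttr had its lowest mean, 3.69 CPM, in the core.

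Before core and shell were tested, the ratio of core over shell was taken within each pair, on log2 CPM with a prior count of 2. The Sham pairs did not run the same way. For many transcripts the libraries labelled core and shell differed in one direction in replicates 1 and 3 and in the other direction in replicates 4 and 5. Of 13506 transcripts tested in Sham, 3251 (24.07%) had one sign in replicates 1 and 3 and the other sign in replicates 4 and 5, the most frequent of the 8 possible patterns of sign. The same sign in all 4 Sham pairs was found for 1705 (12.62%), close to an even spread over the 8 patterns. Among the 13147 transcripts tested in FT, 3400 (25.86%) had one sign in all 4 pairs and 1867 (14.20%) were split between replicates 1 and 3 and replicates 4 and 5. A split of replicate 1 from replicates 3, 4 and 5 was more frequent in FT, with 2235 (17.0%). Across 14315 transcripts, the ratios of Sham replicates 1 and 3 had a Pearson's r of 0.312 and those of replicates 4 and 5 an r of 0.268, while the 4 values between these sets ran from -0.276 to -0.080. These correlations are descriptions across transcripts, which are not independent replicates, and the points share their libraries.

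The FT samples gave a separate set of core against shell differences, from libraries that the Sham comparison did not use. A transcript was called when its absolute log2 fold change (log2FC) was at least 0.32 and its Benjamini-Hochberg adjusted p in edgeR was at most 0.1, with the replicate number as a block. In FT, 924 of 13147 transcripts were called (7.03%), 457 of them higher in the core (3.48%) and 467 higher in the shell (3.55%). DESeq2 called 884 of 20976 (4.21%). Every listed gene has a name, and of the 1803 named transcripts tested in FT 12.3% were called in either direction. For the counts of list members below, 12.3% is thus a nearer background than the shares over all transcripts, though it holds both directions. The count of 924 was 408 without replicate 3, 310 without replicate 5 and 0 without the block. Sham replicate 1 had the sign of the FT difference for 771 of these 924 transcripts (83.4%), and replicate 3 for 707 (76.5%). Sham replicate 4 had it for 96 (10.4%) and replicate 5 for 40 (4.33%). The median log2 ratio of the 457 transcripts higher in the FT core was 0.49 and 0.37 in Sham replicates 1 and 3, and -0.52 and -0.65 in replicates 4 and 5. For the 467 transcripts higher in the FT shell, those medians were -0.38, -0.42, 0.43 and 0.52. Across 14315 transcripts, log2 CPM of 7 of the 8 Sham libraries had a higher r with the FT shell than with the FT core library of the same number. The exception was the Sham shell library of replicate 5, with an r of 0.957 for the FT core and 0.9468 for the FT shell. Whether core and shell libraries of Sham replicates 4 and 5 were exchanged at some step was not tested, so the Sham values of these replicates are those of the libraries labelled core and shell. Every sample was kept under its label.

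**Figure D2:**
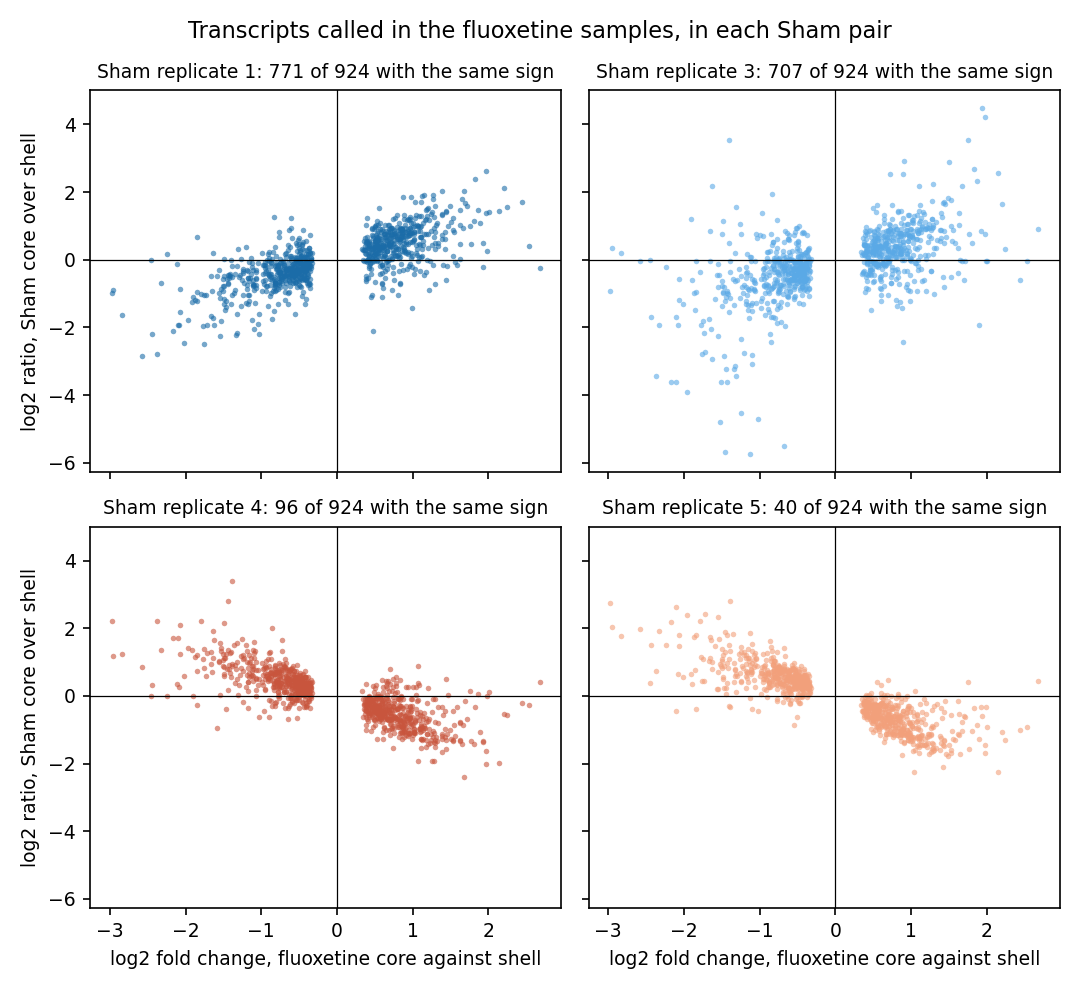
Each point is 1 of the 924 transcripts called between FT core and FT shell, with its FT log2FC on the horizontal axis and its log2 ratio of core over shell in 1 Sham pair on the vertical axis. In replicates 1 and 3 most points lie in the quadrants of equal sign, 771 and 707 of 924, and in replicates 4 and 5 most lie in the quadrants of opposite sign.

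With all 4 pairs and the replicate number as a block, no transcript was called between Sham core and Sham shell in edgeR, 0 of 13506 tested (0.0%). The lowest adjusted p was 0.153, for Ttr. At an unadjusted p under 0.05 there were 479 transcripts, 198 of them higher in the core and 281 higher in the shell. With no difference at all, about 0.05 of the transcripts tested would pass this cut, and 479 of 13506 is below that share. Of the 479, 358 had the same sign in all 4 pairs, an agreement that the choice by a small p on the same pairs favours. DESeq2 with the same block called 3 of 22196 (0.0135%), each higher in the shell, namely Ttr, Ptgds and ENSRNOT00000066053, which has no name in the table used. Without replicates 4 and 5, edgeR called 3066 of 12832 transcripts (23.9%), and without replicates 1 and 3 it called 645 of 14235 (4.53%). A total of 338 transcripts were called in both of these fits, and 328 of them had opposite signs. The pairs left out there were chosen by the very differences being counted, so the counts describe the pairs and are no test of core against shell.

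The 5 named transcripts with the smallest p on each side of the Sham comparison had one sign in all 4 pairs. Their choice by p on these same pairs favours such agreement, so it is a description and adds no support to the values below. The same holds for the list members below that were named for a small p in Sham. Ttr, transthyretin, the thyroid hormone carrier that the choroid plexus makes in bulk, was at 4.99, 3.99, 3.0 and 1.76 CPM in the Sham core libraries of replicates 1, 3, 4 and 5 and at 81.0, 75.5, 113 and 5.99 CPM in the shell libraries. Each shell library was above every core library, and that of replicate 5 was the closest to them. Its log2FC of core against shell was -3.94 ± 0.47 (SE), with an adjusted p of 0.153 in edgeR and 0.000225 in DESeq2. Without replicate 5 the shell remained higher and the edgeR adjusted p was 4.08e-05. In FT the Ttr levels were 7.46, 2.76, 41.4 and 26.8 CPM in the core and 6.01, 15.0, 8.22 and 3.96 CPM in the shell, so the groups overlapped, and the log2FC was 1.28 ± 0.56 with an adjusted p of 0.26. Across the Sham regions, Ttr had its lowest mean in the accumbens core, 3.69 ± 1.46 CPM, and the 14th highest in the shell, 75.3 ± 49.8 CPM, against 28300 CPM in the region labelled LC, the highest.

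Ptgds, the prostaglandin D2 synthase made by meninges, choroid plexus and oligodendrocytes, was at 687, 384, 224 and 140 CPM in the Sham core and at 1650, 1390, 298 and 279 CPM in the shell. The groups overlapped, but the shell library was the higher one in each pair. Its log2FC was -1.15 ± 0.23, with an adjusted p of 0.997 in edgeR and 0.0175 in DESeq2. Bgn, the matrix proteoglycan biglycan, was at 2.95, 5.98, 6.37 and 5.43 CPM in the core and at 8.34, 13.4, 9.76 and 10.3 CPM in the shell, with no overlap and a log2FC of -1.05 ± 0.22 (edgeR adjusted p = 0.997). The other 2 named transcripts on this side were Pik3c2b, a class II phosphoinositide 3-kinase, with a log2FC of -0.84 ± 0.19, and Id3, an inhibitor of helix-loop-helix transcription factors, with -0.72 ± 0.17, both at an adjusted p of 0.997. Pik3c2b had close ratios in the 4 pairs, -0.80, -0.83, -0.89 and -0.73, and its Sham shell mean of 10.3 ± 6.05 CPM was the highest of the 25 regions. The region labelled BNST was next, at 9.08 ± 5.46 CPM, a gap smaller than either SD.

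The ependyma and choroid plexus list, to which Ttr belongs, had transcripts for 9 of its 17 genes. Summed over the 9, it came to 70.4, 61.2, 105 and 90.4 CPM in the Sham core and to 129, 103, 215 and 93.9 CPM in the shell. In replicates 1, 3 and 5 the shell excess of Ttr alone was larger than that of the sum, and not every gene of the list had its direction. Ccdc39, needed for the assembly of motile cilia, was at 43.3, 31.9, 67.6 and 47.9 CPM in the core and at 23.7, 12.1, 65.2 and 45.4 CPM in the shell, with the core higher in each pair (log2FC 0.48 ± 0.21, edgeR adjusted p = 0.997). Drc1, a part of the ciliary dynein regulatory complex, had Sham ratios of -0.59, 0.69, 0.67 and 0.40. It was the 1 gene of the 9 called in FT, higher in the shell at -0.95 ± 0.20 (adjusted p = 0.0186), against 3.55% of all transcripts tested. The part of choroid plexus, meningeal or vascular tissue in the Ttr, Ptgds and Bgn values was not tested. In bulk samples, fewer cells of a type and less RNA per cell cannot be told apart.

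On the other side, the 5 named transcripts with the smallest p were Ankrd32, Map9, Rock2, Syt4 and A630010A05Rik, with log2FC values from 0.46 to 0.82 and an adjusted p of 0.997 each. Rock2, a kinase activated by the GTPase RhoA, was at 373, 196, 225 and 167 CPM in the Sham core and at 204, 112, 184 and 136 CPM in the shell. The core was higher in each pair, by 0.87, 0.80, 0.29 and 0.30 on the log2 scale. Syt4, a synaptotagmin of secretory vesicles, was at 298, 191, 245 and 227 CPM in the core and at 208, 120, 191 and 173 CPM in the shell, a log2FC of 0.46 ± 0.13. Map9, a microtubule-associated protein of the mitotic spindle, had a log2FC of 0.57 ± 0.16 and pair ratios of 1.07, 0.71, 0.35 and 0.22. Ankrd32 had pair ratios of 0.72, 1.17, 0.36 and 0.65, and the accumbens core had its highest Sham mean of the 25 regions, 49.5 ± 24.3 CPM. The region labelled ILC was close behind for Ankrd32, at 47.1 ± 20.7 CPM. The core and shell libraries of Map9 did not overlap, with 67.5 CPM as the lowest core and 67.0 CPM as the highest shell value, and those of the other 4 transcripts did.

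**Figure D3:**
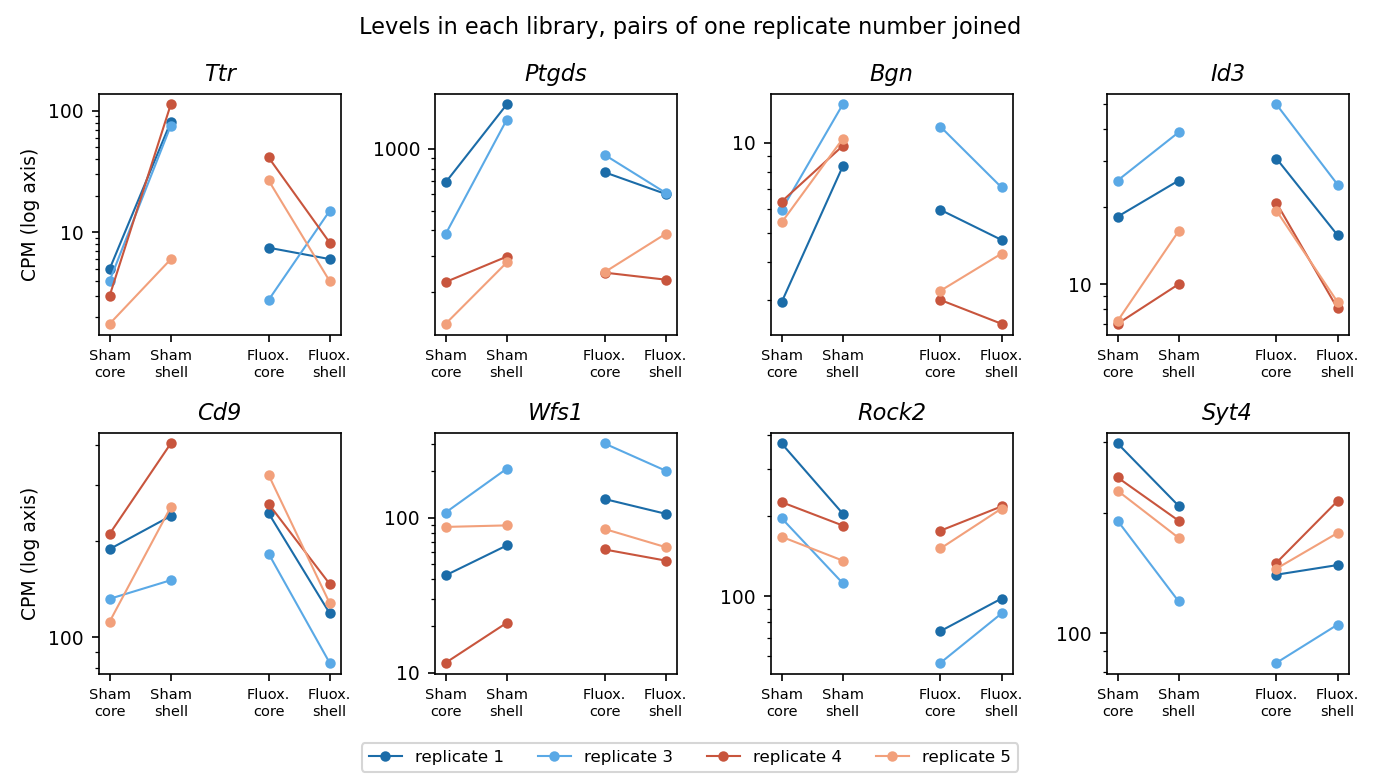
CPM on log axes of 8 transcripts in the Sham and FT libraries, with the core and shell of one replicate number joined by a line. In Sham the lines of Ttr, Ptgds, Bgn, Id3, Cd9 and Wfs1 rise from core to shell in all 4 pairs and those of Rock2 and Syt4 fall, and in FT the lines of Id3, Cd9, Wfs1, Rock2 and Syt4 slope the other way in all 4.

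Of 12 genes listed as known to differ between core and shell, Cartpt and Wfs1 had identifiers. Cartpt, the precursor of the CART peptides, was at 169, 493, 49.5 and 64.2 CPM in the Sham core and at 125, 470, 45.1 and 62.6 CPM in the shell. The replicates differed from each other far more than the regions did, and the log2FC was 0.15 ± 0.14 (edgeR adjusted p = 0.997). In FT it was 0.68 ± 0.17 and called, with an adjusted p of 0.0522 and a core that was higher in 4 of 4 pairs. Wfs1, wolframin, a protein of the endoplasmic reticulum, was at 42.5, 108, 11.6 and 87.2 CPM in the Sham core and at 66.2, 207, 21.0 and 89.2 CPM in the shell. The shell was higher in each pair, though by only 0.03 on the log2 scale in replicate 5, and the log2FC of -0.63 ± 0.17 was not called (edgeR adjusted p = 0.997). In FT the Wfs1 log2FC was 0.39 ± 0.10, called at an adjusted p of 0.0633, with the core higher in 4 of 4 pairs.

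The striatal projection neuron list had transcripts for 9 of its 35 genes, and none was called in Sham. Its median log2FC was -0.01, beside -0.02 over all transcripts tested. The core was higher for 8 of the 9 in replicate 1 and in replicate 3, with median log2 ratios of 0.63 and 0.32, for 0 of 9 in replicate 4 and for 1 of 9 in replicate 5, with medians of -0.51 and -0.26. Ppp1r1b was at 653, 522, 208 and 129 CPM in the Sham core and at 405, 321, 270 and 218 CPM in the shell. The core was thus higher in replicates 1 and 3 and lower in replicates 4 and 5, and the log2FC was 0.04 ± 0.25. Drd2 had Sham ratios of 0.89, 0.80, -0.74 and -0.61, Adora2a of 1.02, 0.28, -0.59 and -0.61, and Penk of 0.63, 0.28, -0.69 and -0.16. In FT, 8 of the 9 transcripts were called higher in the core, against 3.48% of all transcripts tested in that direction. Ppp1r1b there was at 1060, 1730, 292 and 276 CPM in the core and at 717, 892, 156 and 140 CPM in the shell, with a log2FC of 0.86 ± 0.11 (edgeR adjusted p = 0.00125). Hpca, the neuronal calcium sensor hippocalcin, behaved differently in Sham: its ratios were -0.06, -0.44, -0.56 and -0.02, with a log2FC of -0.29 ± 0.15 (adjusted p = 0.997). It was called in FT, at 0.46 ± 0.12 (adjusted p = 0.046).

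**Figure D4:**
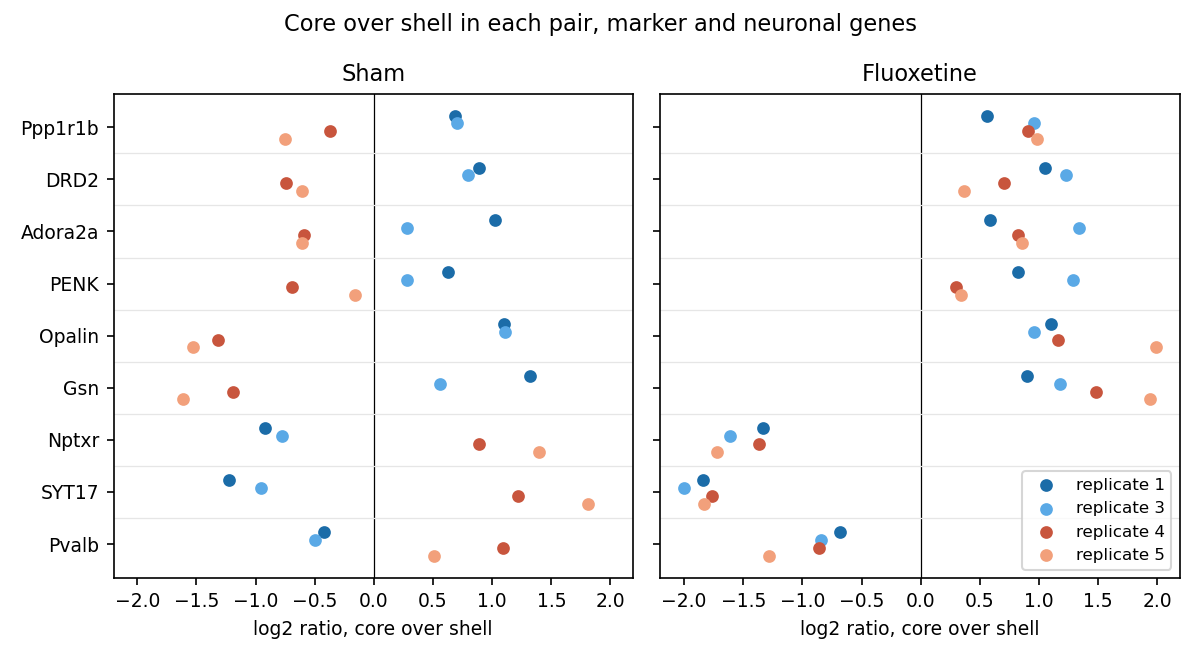
Log2 ratio of core over shell in each pair for projection neuron genes (Ppp1r1b, DRD2, Adora2a, PENK), oligodendrocyte genes (Opalin, Gsn) and 3 genes higher in the FT shell (Nptxr, SYT17, Pvalb), with 1 point per replicate. In Sham the points of replicates 1 and 3 lie on one side of 0 and those of replicates 4 and 5 on the other for all 9 genes, and in FT all 4 points lie on the side of Sham replicates 1 and 3.

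Oligodendrocyte genes split between the Sham pairs more widely than the other lists in the heatmap of list medians. Transcripts were found for 21 of 35 genes, and the core was higher for 21, 18, 0 and 0 of them in replicates 1, 3, 4 and 5, with median log2 ratios of 0.93, 0.86, -0.99 and -1.17. None was called in Sham, and the median log2FC was -0.17. Their summed level was 1970, 1950, 1130 and 892 CPM in the Sham core and 989, 1270, 2280 and 2040 CPM in the shell. In FT the sum was 1930, 2980, 1810 and 2420 CPM in the core and 1220, 1630, 966 and 887 CPM in the shell, with no overlap. There 18 of the 21 were called higher in the core, against 3.48% of all transcripts tested and 12.3% of the named ones in either direction. The list's median log2FC was 0.96, beside -0.01 over all transcripts. Opalin, a membrane protein of myelinating oligodendrocytes, was at 187, 103, 148 and 125 CPM in the Sham core and at 87.1, 47.6, 370 and 362 CPM in the shell. The Sham core libraries lay between the shell libraries of replicates 1 and 3 and those of replicates 4 and 5, and the log2FC was -0.23 ± 0.46. Gsn, the actin-severing protein gelsolin, had Sham ratios of 1.32, 0.56, -1.19 and -1.61, and in FT a log2FC of 1.38 ± 0.15 (edgeR adjusted p = 0.000833). Tspan2, a tetraspanin of myelin, Pllp, plasmolipin, and Qdpr, dihydropteridine reductase, had the same split and FT log2FC values from 0.95 to 1.13, all called. Tppp and Sirt2 had the smallest p of the list in Sham, with log2FC values of -0.38 ± 0.22 and -0.34 ± 0.24.

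Several neuronal genes that were higher in the FT shell were split in Sham. SYT17, a synaptotagmin-like protein, was at 37.1, 28.6, 65.6 and 115 CPM in the Sham core and at 86.8, 55.2, 28 and 32.7 CPM in the shell. Its FT levels were 29.6, 19.9, 36.4 and 34.7 CPM in the core and 106, 79.8, 124 and 124 CPM in the shell, without overlap, and it had the smallest p of the FT comparison, with a log2FC of -1.85 ± 0.11 (edgeR adjusted p = 1.75e-05). Nptxr, the neuronal pentraxin receptor of excitatory synapses, had Sham ratios of -0.92, -0.78, 0.89 and 1.4 and an FT log2FC of -1.50 ± 0.11. Neurod1, Slc30a3 and Vsnl1, a transcription factor, a vesicular zinc transporter and a calcium sensor, were the 3 of 7 members of the cortical glutamatergic neuron list that were called in FT, each higher in the shell, against 3.55% of all transcripts tested in that direction. The list as a whole had no such direction in FT, with a median log2FC of 0.01 and a core that was higher for 2, 4, 3 and 2 of the 7 members in replicates 1, 3, 4 and 5. The Sham ratios of the 3 called members in replicates 1 and 3 lay between -1.54 and -0.41 and those in replicates 4 and 5 between 0.38 and 1.79. The list had median ratios of -0.45, -0.58, 0.20 and 0.24 in the Sham pairs. Icam5, a dendritic adhesion molecule, and the kinase subunit CAMK2A had the smallest p of that list in Sham, at log2FC values of -0.40 ± 0.19 and -0.33 ± 0.19. In FT their values were 0.34 ± 0.19 and 0.13 ± 0.20, and neither was called.

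Among 7 interneuron transcripts, none was called in Sham and 4 were called higher in the shell in FT, namely Pvalb, Slc5a7, Cck and Vip, against 3.55% of all transcripts tested. Pvalb, the calcium buffer parvalbumin of fast-spiking interneurons, was at 73.7, 71.1, 49.3 and 25.8 CPM in the Sham core and at 98.8, 100, 23.1 and 18.1 CPM in the shell. Its FT levels were 51.4, 59.1, 35.0 and 32.4 CPM in the core and 82.4, 106, 63.7 and 78.7 CPM in the shell, and its FT log2FC was -0.91 ± 0.12 (edgeR adjusted p = 0.00138). Slc5a7, the choline transporter of cholinergic neurons, had Sham ratios of -0.44, -0.56, 0.53 and -0.03. The peptide genes Vip and Cck differed in their Sham ratios, with 0.09, -1.16, 0.39 and 0.97 for Vip and -0.48, -1.28, 0.87 and -0.05 for Cck. Kit, a receptor tyrosine kinase, had a Sham log2FC of -0.32 ± 0.31.

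Vascular and blood transcripts, 6 of 23 genes, were lower in the core for all 6 in Sham replicates 1 and 3, with medians of -1.13 and -0.89, and for 3 and 4 of the 6 in replicates 4 and 5, with medians of -0.06 and -0.23. Their median Sham log2FC was -0.59, beside -0.02 over all transcripts tested. Bgn and Epas1, a hypoxia-inducible factor of endothelium, were lower in the core in 4 of 4 pairs, and Epas1 had a log2FC of -0.74 ± 0.23 (edgeR adjusted p = 0.997). Epas1 was at 22.6 and 35.9 CPM in core and shell of replicate 3, but at most 2.71 CPM in the other Sham libraries. None of the 6 was called in Sham, and in FT Ogn and Myh11, a matrix proteoglycan and the smooth muscle myosin heavy chain, were called higher in the shell. That was 2 of 6, against 3.55% of all transcripts tested. Of 12 astrocyte transcripts none was called in Sham, and Slc25a18, Agt, Slc7a10 and Ntrk2 were called higher in the shell in FT, against 3.55% of all transcripts tested. Slc25a18, a mitochondrial glutamate carrier, had Sham ratios of -0.74, -1.53, 1.35 and 0.71. The potassium channel Kcnj10 was lower in the core in all 4 Sham pairs, by -0.44, -0.93, -0.73 and -0.52, with a log2FC of -0.66 ± 0.25 (adjusted p = 0.997), while the gap junction protein gene Gja1 had -0.14 ± 0.15. In replicate 3, Kcnj10 rested on 4 reads in the core and 15 in the shell. Of 8 microglial transcripts none was called in either treatment, and Cx3cr1, the fractalkine receptor, had the smallest p of them in Sham, at -0.84 ± 0.28, followed by Selplg at -0.60 ± 0.34.

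**Figure D5:**
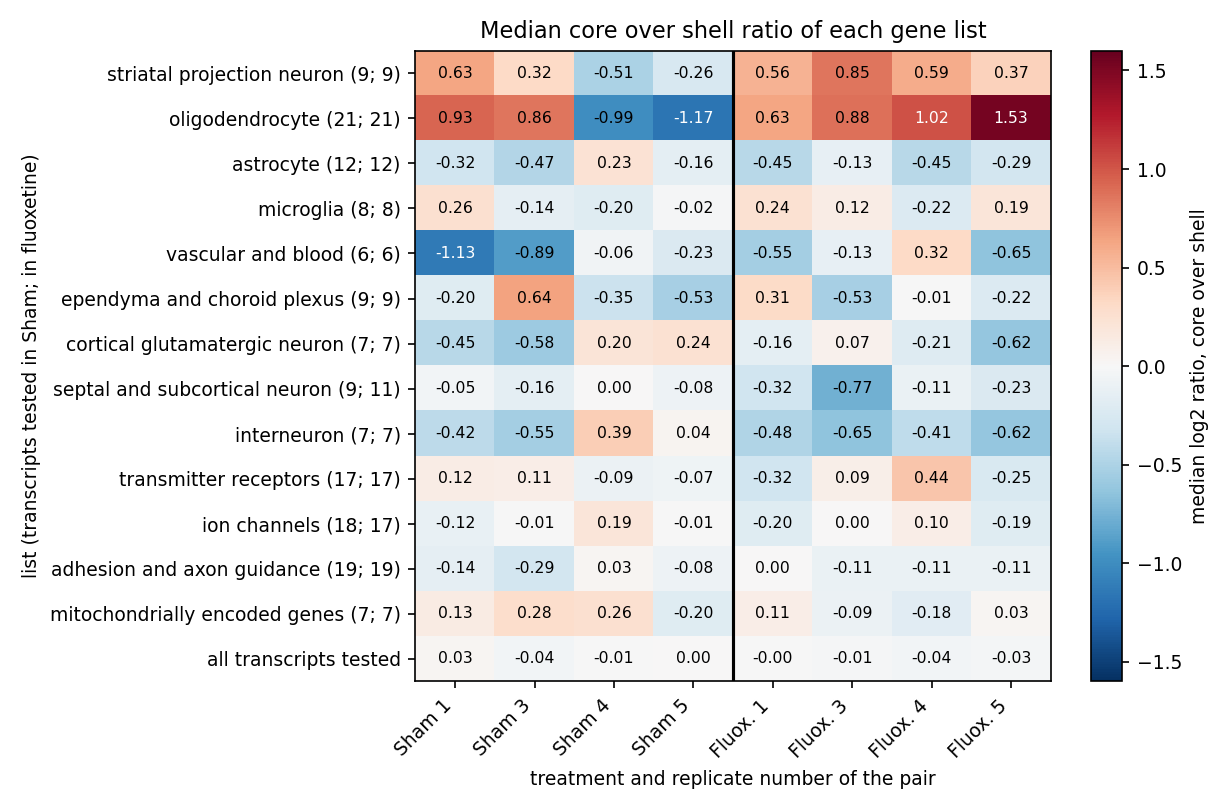
Median log2 ratio of core over shell of 13 gene lists in each of the 4 Sham and 4 FT pairs, with the number of transcripts tested in brackets and all transcripts tested in the bottom line. The oligodendrocyte and striatal projection neuron medians are above 0 in Sham replicates 1 and 3 and in the 4 FT pairs, and below 0 in Sham replicates 4 and 5.

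No member of the remaining lists was called in Sham. Of 17 transmitter receptor transcripts, the nicotinic subunit Chrnb2 and the muscarinic receptor Chrm1 had the smallest p, with log2FC values of -0.72 ± 0.25 and -0.55 ± 0.22, and each was lower in the core in 4 of 4 pairs. Their levels rested on replicate 3, in which Chrnb2 was at 35.2 and 88.6 CPM in core and shell against at most 3.48 CPM in the other 6 Sham libraries. Adora2a, Drd2 and the metabotropic glutamate receptor Grm3 were the 3 receptors called in FT, all higher in the core, and Grm3 had Sham ratios of 0.77, 0.67, -0.52 and -0.59. Among 18 ion channel transcripts, Cacna1h and Scn2b had log2FC values of -0.47 ± 0.28 and -0.35 ± 0.26. Of the 17 channel transcripts tested in FT, 2 were called higher in the core, Scn4b and Kcnab1, and 3 higher in the shell, Kcns3, Kcnab3 and Kcnj3. Of 19 transcripts for adhesion and axon guidance, the semaphorin receptor Plxnb1 was lower in the core in all 4 Sham pairs, at -0.59 ± 0.22, and the synaptic adhesion gene Lrrtm4 had 0.46 ± 0.21, both at an adjusted p of 0.997. In FT, Unc5b and Sema4d were called higher in the core and Opcml, Lrrtm4 and Cntn1 higher in the shell. Beside these receptor, channel and adhesion counts, 3.48% of all transcripts tested in FT were called higher in the core and 3.55% higher in the shell. Of the named transcripts, 12.3% were called in either direction.

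Slc17a6, the vesicular glutamate transporter VGLUT2 of subcortical neurons, was at 13.2, 9.31, 28.9 and 23.3 CPM in the Sham core and at 13.7, 8.96, 11.9 and 9.60 CPM in the shell. It was near parity in replicates 1 and 3, at -0.05 and 0.05, and higher in the core by 1.27 in replicates 4 and 5, for a log2FC of 0.71 ± 0.27 (edgeR adjusted p = 0.997). In FT it was called higher in the shell, at -0.90 ± 0.18 (adjusted p = 0.0141). Gal, the galanin precursor, had a Sham log2FC of -0.59 ± 0.25 and was lower in the core in 4 of 4 pairs. It was named for its small p in these pairs, which favours one sign. Its core and shell held only 6 and 13 reads in replicate 3 and 14 and 19 reads in replicate 4. Of 8 forebrain transcription factor transcripts, Id3 and its relative Id2 had the smallest p in Sham, and Id2 had -0.22 ± 0.18. In FT, Id3 and Lmo1 were called higher in the core and Esrrg and Id2 higher in the shell. That was 2 of 8 in each direction, against 3.48% and 3.55% of all transcripts tested. Fos, the only immediate early gene with an identifier, had a Sham log2FC of 0.08 ± 0.18, and in FT was called higher in the shell at -0.78 ± 0.14 (adjusted p = 0.00793). The 7 mitochondrially encoded transcripts had a median log2FC of 0.05 in Sham and -0.03 in FT, with none called, and MT-ATP8 and MT-ND2 had Sham values of -0.55 ± 0.33 and 0.24 ± 0.20.

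The largest differences called in FT with a name were Clca1, at 2.14 ± 0.29, and Tnni3, at 1.97 ± 0.27, on the core side and Igfbp2, an insulin-like growth factor binding protein, at -2.38 ± 0.27, and Ogn, at -2.08 ± 0.37, on the shell side. The 10 named transcripts with the largest FT log2FC ran from 1.26 to 2.14 on the core side, where Scgb1c1, Svep1, Anlnl1, Hhip, Gsn, Opalin, Ppp1r14a and S1pr5 completed them. Some rest on few reads, and Scgb1c1 and Svep1 had 0 in the FT shell library of replicate 3. On the shell side they ran from -2.38 to -1.47, with Neurod1, Phactr2, SYT17, Kcns3, Nptxr, C1ql3, Kcnab3 and Myh11. Igfbp2 was at 7.74, 3.99, 4.17 and 3.19 CPM in the Sham core and at 54.0, 44.1, 0.804 and 1.89 CPM in the shell. Its Sham shell libraries thus fell on both sides of the core libraries, with ratios of -2.78, -3.43, 2.21 and 0.72. C1ql3, a secreted synaptic organizer, had ratios of -1.31, -0.94, 2.16 and 1.21 in Sham, and Phactr2 of -1.25, 1.20, 1.35 and 0.64. Among transcripts without a name, ENSRNOT00000075105 and ENSRNOT00000000783 had the largest FT values on the core side, 2.68 ± 0.69 and 2.53 ± 0.49. Both were near the floor in the FT shell, with 1, 7, 5 and 3 reads and with 15, 3, 5 and 9 reads in replicates 1, 3, 4 and 5. ENSRNOT00000012773 and ENSRNOT00000006880 had the largest on the shell side, -2.97 ± 0.26 and -2.96 ± 0.38. Their FT core libraries held 5, 1, 29 and 29 reads and 1, 4, 7 and 12 reads.

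Whether the core against shell difference itself differed between Sham and FT was tested as an interaction over the 16 libraries, with a block for each of the 8 pairs. It was called for 74 of 14315 transcripts (0.517%), 24 of them with a name. DESeq2 called 387 of 22836 (1.69%). Of the 74 from edgeR, 26 had one sign in all 4 Sham pairs and the other sign in all 4 FT pairs, and 15 had the Sham split between replicates 1 and 3 and replicates 4 and 5. The 74 were chosen by their difference between these same pairs, which favours opposite signs, so the 26 are a description and add no support. Of all 13506 transcripts tested in Sham, 24.07% had that split. Id3 had the smallest adjusted p of the called transcripts with a name. It was at 18.3, 25.3, 7.01 and 7.19 CPM in the Sham core and at 25.3, 39.0, 10.0 and 16.1 CPM in the shell, and in FT at 30.8, 50, 20.7 and 19.3 CPM in the core and at 15.5, 24.4, 8.04 and 8.52 CPM in the shell. The shell was thus higher in every Sham pair and the core in every FT pair, and the interaction log2FC, FT minus Sham, was 1.84 ± 0.21 (edgeR adjusted p = 0.00665). Cd9, a tetraspanin abundant in myelin, was at 189, 132, 211 and 112 CPM in the Sham core and at 240, 151, 405 and 256 CPM in the shell. Its Sham ratios were -0.35, -0.20, -0.94 and -1.19 and its FT ratios 1.04, 1.14, 0.84 and 1.33, with an interaction of 1.77 ± 0.23 (adjusted p = 0.0136). Tnnc2, the calcium-binding troponin C of fast muscle, had an interaction of -1.21 ± 0.20 (adjusted p = 0.0457), from Sham ratios of 0.22, -0.23, 0.43 and 0.69 and FT ratios of -0.64, -0.87, -1.09 and -0.82. These differences between treatments cannot be told apart from the split among the Sham pairs wherever replicates 4 and 5 carry them, and without replicate 3, 4 or 5 in both treatments the count of 74 became 0, 2 or 5.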

How the data were processed

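Tissue punches pooled from 10 rats per sample were sequenced as 76 bp paired reads. According to the study's methods and the submitters' processing notes, reads were aligned to rn5 with STAR and counted with HTSeq, with FastQC for quality control; versions and the strand setting are not given in the sources used here. The labels give the molecule as polyA RNA and the kit as one for total RNA. The authors deposited raw counts per transcript for 29188 Ensembl transcripts, without normalization, and the 5 summary lines of each file were dropped. Reads shared by isoforms were set aside as ambiguous (2.09 to 9.13% in the Sham accumbens), which lowers the counts of transcripts with overlapping isoforms. The label of the FT core library of replicate 1 notes corrupted raw data; its deposited counts were used. No 2 libraries were identical.

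Core was tested against shell with edgeR 4.0.16 in R 4.3.3, using TMM factors (0.396 to 1.63), filterByExpr (minimum count 10, minimum total 15), the quasi-likelihood test and Benjamini-Hochberg adjustment over all transcripts tested. The replicate number was a block, as in the study's own tests. Deviations from the region mean correlated between core and shell of one number at 0.742 to 0.878 in Sham and 0.796 to 0.887 in FT. For each core library, the highest correlation with a shell library of a different number was lower, at 0.133 to 0.441 in Sham and 0.126 to 0.813 in FT. In FT replicates 4 and 5 it reached 0.772 and 0.813, beside 0.877 and 0.859 for the same number, so the numbers set these pairs apart only weakly. The SE of a log2FC was derived from its size and its F statistic. DESeq2 1.42.0 and the other settings in the closing section were alternatives, and the fits were tested on simulated data.

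Names came from a supplementary table of the study that names 1832 transcripts it had called for fluoxetine in several regions, so named transcripts are no random subset (in FT, 12.3% of those tested were called, against 7.03% of all). Members and gene lists were chosen with earlier results of these data known. Genes were named by a rule: the 10 largest named DEGs of each direction with one sign in 4 of 4 pairs, or, with no DEG, the 5 with the smallest p; Cartpt and Wfs1; from each list up to 6 called members or the 2 with the smallest p; the 3 named interaction DEGs with the smallest adjusted p; and up to 2 unnamed DEGs a direction. One gene that the rule names is not reported here. The two-pair fits and the members whose levels are printed per sample were chosen after the data were seen. Tables and figures were made with Python 3.11.15, numpy 2.4.6, pandas 2.3.3 and matplotlib 3.10.9.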

Additional observations from a re-analysis of the deposited data

Results flagged for a closer look

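The core against shell difference differed between Sham and FT for 74 transcripts, and the 3 named ones with the smallest adjusted p were Id3 (1.84 on the log2 scale, FT minus Sham), Cd9 (1.77) and Tnnc2 (-1.21).

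In groups of 4 libraries, a value that lay far from the other 3 was found for Syt4 in the FT core of replicate 3 (84.3 CPM), Nptxr in the FT core of replicate 1 (205.0 CPM), Cartpt in the FT core of replicate 3 (918 CPM) and Tnnc2 in the Sham shell of replicate 1 (43.0 CPM). The share of counts in the 50 most abundant transcripts was far from the rest in both FT regions of replicate 3, at 62.4% in the core and 65.4% in the shell. Over the transcripts picked out for this report, 47 of 392 groups of 4 held such a value, and in 40 of the 47 it was that of replicate 3. Chance gives about 1 in 20 independent groups. These groups share the same libraries and are not independent, so the counts are a description.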

How the results depend on the processing

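The count of Sham calls, 0 with edgeR, was 3 with DESeq2, 5 without the low-count filter (Ttr, Ptgds and 3 transcripts without a name), 0 to 1 with each replicate left out in turn (Ttr without replicate 5), 3066 without replicates 4 and 5, and 645 without replicates 1 and 3. It stayed at 0 with median-ratio size factors, with no replicate block, in a joint fit of the 16 libraries, at an adjusted p of 0.05 and with no minimum fold change. The FT count, 924, was 550 at an adjusted p of 0.05, 0 with no replicate block (243 at an unadjusted p under 0.05), and 310 to 1020 with a replicate left out, of which 310 without replicate 5 and 408 without replicate 3. The interaction count, 74, was 9 at an adjusted p of 0.05, 387 with DESeq2, 893 without the filter, 0 with no replicate block, 1568 without replicates 4 and 5, 2144 without replicates 1 and 3, and 0 to 812 with a replicate left out, 812 being the count without replicate 1. In Sham, Rasd2 changed sign (-0.06, and -0.18 to 0.07 with a replicate left out) and so did Fos (0.08, and -0.10 to 0.25). The causes were not tested. Low transcripts rest on few reads in replicate 3.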
